A study of Homo sapiens with 26 samples.

Results

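Gene expression was compared between 4 large and 3 small tetraploid (4N) clones of DLD1, an established human colorectal adenocarcinoma cell line of epithelial type. These 7 clones were chosen by their labels, and they are 7 of the 26 libraries of the series. The study gave near-diploid DLD1 cells 1.5 µg/mL of dihydrocytochalasin B, an actin inhibitor that blocks the cleavage of the cell body after mitosis, for 20 hr. After washout and 48 hr of recovery, single cells were grown into clones by limiting dilution, and the 4N clones were classed as large or small from the size of the cell and its nucleus. Both classes therefore share the line, the drug, the doubled genome and the passage through a single cell. Each replicate is a separate clone. The p values thus measure the spread between clones. Changes that clones acquired by themselves, or took over from shared ancestors in the line, cannot be told apart from those that go with size. For orientation, values are also given for the 3 diploid (2N) DLD1 libraries, 2 clones and the parental line, for which the labels list no drug. A later comparison adds large and small 4N clones of HCT116, which were made with another drug, blebbistatin.

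Whole genome doubling is a common event in cancer, and cells with doubled genomes usually grow larger and often lose or gain chromosomes afterwards. Cell size is tied to the amount of DNA, to the rate of protein synthesis and to the tension of the actin cytoskeleton. DLD1 cells keep parts of the program of the intestinal lining, where absorptive cells carry a brush border of microvilli built on bundled actin and secretory cells make mucins and trefoil peptides.

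Each of the 7 libraries held between 23490771 and 35144381 reads in genes, and mitochondrial genes took 2.42% to 3.95% of them. Levels are FPKM, fragments per kilobase of gene length scaled for depth, as the authors deposited them. At these depths, 1 read on 1 kb of transcript was worth 0.0269 to 0.04003 FPKM. Of 12 markers of colon epithelium, 7 reached 1 FPKM in all 7 clones, and their summed level was 2175 to 2625 FPKM in large clones and 1906 to 2618 FPKM in small clones. None of 8 fibroblast markers reached 1 FPKM in any clone, and 1 of 9 leukocyte markers did. Clones of the same class were not much closer to each other than to the other class. The SD of the log2 differences over all tested genes was 0.273 to 0.398 between pairs of large clones, 0.277 to 0.381 between pairs of small clones and 0.365 to 0.439 between a large and a small clone. The closest pairs within a class were large clones 3 and 4 and small clones 2 and 3.

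Of 58735 genes, 11646 reached 1 FPKM in at least 3 of the 7 clones and were tested with limma on log2(FPKM + 1), a scale that understates the change of low genes. Large clones differed from small clones in 22 genes at an adjusted p below 0.05 (0.189% of those tested), 6 of them higher (0.0515%) and 16 lower (0.137%). The 22 genes fall into 3 kinds. Chromosome Y holds 8 of them, all lower in large clones, out of 10 tested genes there, and their levels are not described. The first pseudoautosomal region, the stretch that the tips of chromosomes X and Y share, holds 5, all lower. The other 9 lie on the autosomes or elsewhere on X. They are HLA-B, GJA3, CRTAM, LAGE3, HIST1H2BD and MLPH, which rose, and VIL1, MYO15B and C9orf152, which fell. Here and below, rose and fell mean higher and lower in large than in small clones, and do not say which class departed from the 2N level. Outside chromosome Y, 2 called genes, VIL1 and the pseudoautosomal IL3RA, reached 1 FPKM in no large clone, and 1, GJA3, in no small clone. These passed the filter only through the class where they are high. Of all 11646 tested genes, 39 reached 1 FPKM in no large clone and 93 in no small clone. At an unadjusted p below 0.05, 579 genes were higher (4.97%) and 786 lower (6.75%), and the median difference over all genes was -0.01. In 14 of the 22 genes, those outside chromosome Y, no value of a large clone overlapped with one of a small clone. By itself, absence of overlap held for 570 higher (4.89%) and 825 lower genes (7.08%). VIL1 was past the threshold with each of the 7 clones left out in turn. The other 13 were not, and their highest adjusted p from limma in those fits lay between 0.0650 for MYO15B and 0.218 for CRTAM.

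**Figure D1:**
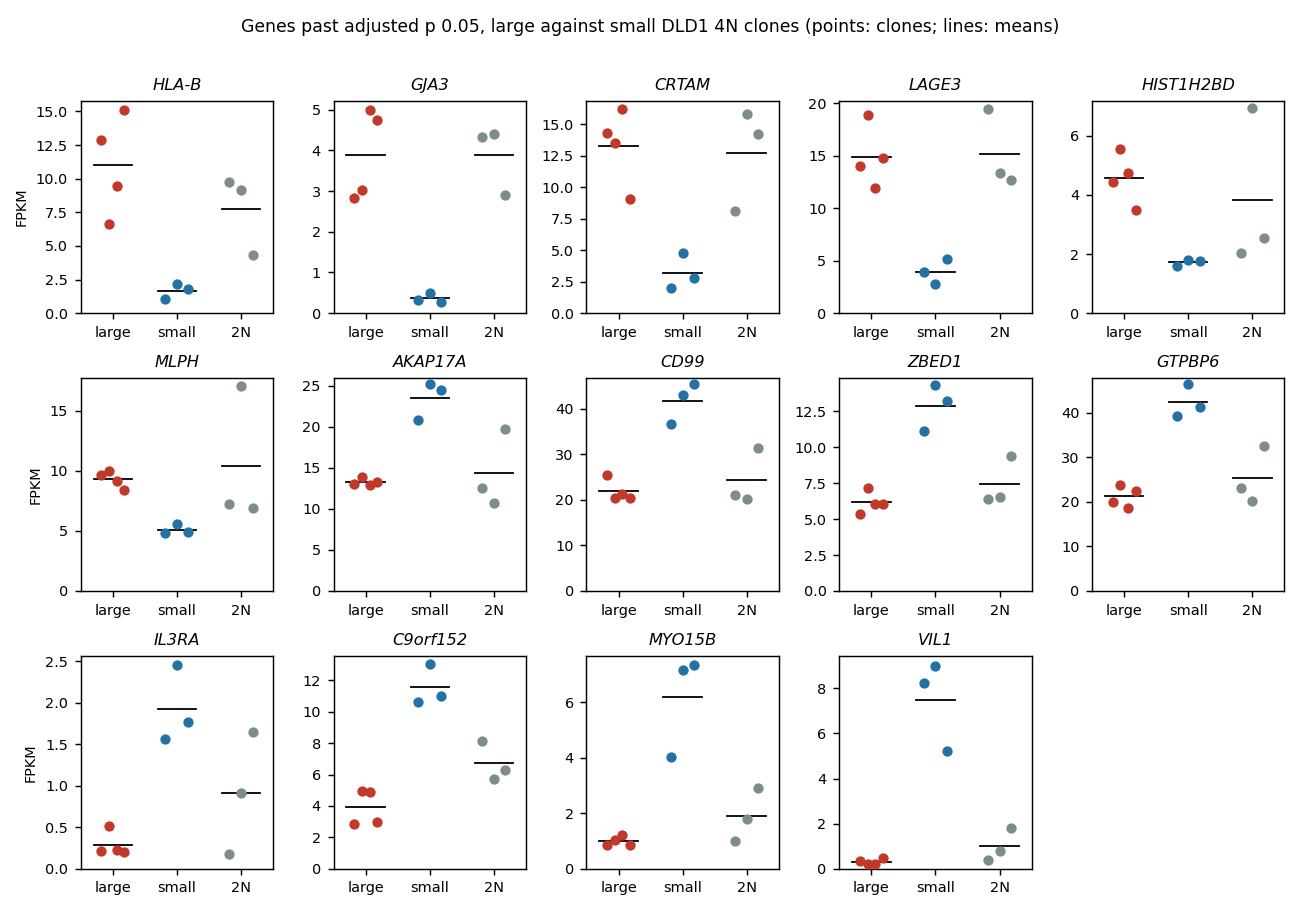
Levels in FPKM (linear axes from 0) of the 14 genes past an adjusted p of 0.05 that lie outside chromosome Y. Each point is a library: 4 large clones in red, 3 small clones in blue, and the 2 2N clones and the parental line in grey, with a line at each mean. Large and small clones are separated in every panel, for example at 6.60 to 15.1 and 1.07 to 2.14 FPKM for HLA-B.

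The promoters of 4 of these genes, chosen after their values were seen, are shown as examples from each kind and direction: HLA-B and GJA3, which rose in large clones, MYO15B, which fell, and CD99, a pseudoautosomal gene that fell. Of the 14 genes, 11 had an entry among the RefSeq promoters of GRCh38.p14. Each sequence below is the 250 bases before the start site, 5′ to 3′ on the strand of the gene. Capitals mark matches, on either strand, to the CCAAT box (CCAAT) or the GC box (GGGCGG).
HLA-B, chr6:31357180-31357429, minus strand: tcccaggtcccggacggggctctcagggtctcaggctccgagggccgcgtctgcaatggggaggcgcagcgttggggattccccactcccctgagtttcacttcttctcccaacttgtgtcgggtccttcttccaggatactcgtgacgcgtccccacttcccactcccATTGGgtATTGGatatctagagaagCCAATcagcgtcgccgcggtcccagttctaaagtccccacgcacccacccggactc
GJA3, chr13:20161053-20161302, minus strand: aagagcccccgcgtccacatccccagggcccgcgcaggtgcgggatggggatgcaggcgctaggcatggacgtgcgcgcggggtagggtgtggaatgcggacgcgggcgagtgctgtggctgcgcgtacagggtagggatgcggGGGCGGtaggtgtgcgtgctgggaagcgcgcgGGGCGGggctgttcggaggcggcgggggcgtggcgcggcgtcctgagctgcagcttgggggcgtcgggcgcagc
MYO15B, chr17:75587550-75587799, plus strand: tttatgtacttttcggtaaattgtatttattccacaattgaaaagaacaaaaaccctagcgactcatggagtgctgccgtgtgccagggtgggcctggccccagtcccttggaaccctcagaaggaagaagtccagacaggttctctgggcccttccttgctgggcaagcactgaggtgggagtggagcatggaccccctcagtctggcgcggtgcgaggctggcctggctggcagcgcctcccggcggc
CD99, chrX:2691045-2691294, plus strand: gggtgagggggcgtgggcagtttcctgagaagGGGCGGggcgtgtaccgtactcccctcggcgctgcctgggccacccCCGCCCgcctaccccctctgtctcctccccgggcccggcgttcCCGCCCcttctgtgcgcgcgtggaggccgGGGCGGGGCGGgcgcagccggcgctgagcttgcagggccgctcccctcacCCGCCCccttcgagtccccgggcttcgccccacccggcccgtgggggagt
HLA-B held 3 CCAAT boxes, at 81, 74 and 56 bases before the start site, and no GC box. GJA3 held 2 GC boxes, CD99 held 6, and MYO15B held neither motif. Over 35116 promoters, 32.0% held the CCAAT box and 42.6% the GC box in the same window. A motif of the intestinal CDX factors, TTTATNG (8.93% of promoters), and the AP-1 motif TGANTCA (6.57%) had no match in the 4 windows. G and C made up 61.6% of the HLA-B window, 74.8% of GJA3, 58% of MYO15B and 78% of CD99. These matches describe the sequence only.

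Among the 14 genes, the largest log2 difference was in the brush border gene VIL1 (ENSG00000127831, GRCh38 chromosome 2, 218419092 to 218453295, plus strand), which encodes villin, the protein that bundles actin in microvilli. VIL1 was at 0.328, 0.202, 0.206 and 0.482 FPKM in large clones 1 to 4, against 8.24, 8.99 and 5.22 FPKM in small clones 1 to 3. All large clones lay under 1 FPKM and all small clones over 5, so the gene entered the test through its level in small clones. VIL1 fell by 2.68 on the log2 scale (0.18 SE, limma adjusted p = 0.00202), and the ratio of the means was 24.6 in favour of small clones. The 2N clones had 0.371 and 0.807 FPKM and the parental line 1.81 FPKM, so that the small clones stood above every 2N library as well. With 1 clone left out at a time, the log2 difference stayed between -2.54 and -2.89.

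MYO15B (chromosome 17, 75588058 to 75626501, plus strand), an unconventional myosin gene, moved the same way. It was at 0.8698, 1.05, 1.204 and 0.853 FPKM in large clones, against 4.03, 7.15 and 7.34 FPKM in small clones, a log2 difference of -1.81 ± 0.18 (SE, limma adjusted p = 0.01099). Large clones held about the level of 2N clone 1 (0.989 FPKM), while 2N clone 2 had 1.81 and the parental line 2.91 FPKM. Without small clone 3 its limma adjusted p was 0.0650.

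Over the list of enterocyte and brush border genes, 17 of 45 passed the filter on low values, 2 fell (VIL1 and MYO15B) and none rose. Their median log2 difference was -0.25, against -0.01 for all genes, 6 were higher and 11 lower, and the median ran from -0.27 to -0.03 with 1 clone left out at a time. EZR, which encodes ezrin, the linker between microvillar actin and the membrane, had 259, 305, 254 and 240.4 FPKM in large clones and 201, 233 and 219 FPKM in small clones, higher in every large clone but with a limma adjusted p of 0.357. SLC51B, a subunit of the basolateral bile acid exporter of enterocytes, had 1.13, 0.383, 1.38 and 0.969 FPKM in large clones and 1.72, 2.75 and 3.58 FPKM in small clones (limma adjusted p = 0.201). MYO1D, a motor of the microvillus membrane, overlapped between the classes, since large clone 1 had 21.7 FPKM and small clone 1 19.9 FPKM. KRT20, a keratin of differentiated surface cells, varied more within the large clones (41.8, 0.0217, 0.9498 and 34.1 FPKM) than between the classes (small clones 0.131, 0.974 and 11.4 FPKM).

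Among intestinal transcription factors, 15 of 26 were tested, none passed the threshold, and 13 were lower, with a median log2 difference of -0.32 (-0.40 to -0.26 with 1 clone left out at a time). HES1, the Notch effector that favours the absorptive fate, had the lowest unadjusted p of the list. HES1 was at 20.5, 19.2, 12.98 and 25.2 FPKM in large clones, against 49.4, 49.3 and 24.5 FPKM in small clones, and small clone 3 fell inside the range of the large clones (limma adjusted p = 0.234). CDX2, the caudal factor that sets intestinal identity, had 41.9, 38.5, 45.3 and 65.2 FPKM in large clones and 81.8, 48.6 and 70.8 FPKM in small clones, and large clone 4 lay above small clone 2. PPARG, a nuclear receptor of fatty acid metabolism, went the other way, with 4.32, 2.498, 6.12 and 3.96 FPKM in large clones and 1.48, 2.03 and 2.66 FPKM in small clones (limma adjusted p = 0.279). Of 30 mucin, trefoil and goblet genes, 9 were tested, none passed, and 7 were lower, with a median of -0.49 (-0.59 to -0.24 with 1 clone left out at a time). TFF1, a secreted trefoil peptide, was at 5.16, 4.504, 5.89 and 3.44 FPKM in large clones and 7.24, 6.47 and 7.29 FPKM in small clones without overlap (limma adjusted p = 0.258), and TFF3 was at 2.82, 2.74, 3.197 and 4.06 FPKM in large clones and 9.25, 3.83 and 6.46 FPKM in small clones. MUC5AC, a gel-forming mucin of the stomach, had 1.24, 13.2, 6.03 and 8.14 FPKM in large clones and 3.17, 3.79 and 4.48 FPKM in small clones.

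HLA-B (chromosome 6, 31269491 to 31357188, minus strand), which encodes a heavy chain of the class I complex that shows peptides to T cells, rose in large clones. It was at 12.9, 6.599, 9.48 and 15.1 FPKM in large clones, against 1.07, 2.14 and 1.79 FPKM in small clones, a log2 difference of 2.14 ± 0.26 (SE, limma adjusted p = 0.0243). Every large clone was above every small clone, and the 2N clones (9.75 and 9.16 FPKM) and the parental line (4.33 FPKM) were also above the small clones. HLA-B belongs to a family of near-identical genes, and reads that match several members could have been assigned elsewhere or dropped by the authors' counting, so its level is uncertain. Of 24 tested genes of class I and peptide loading, HLA-B was the only one past the threshold. The median of the list was -0.02 (0.00178 with each library scaled to the same FPKM sum), and 9 were higher and 15 lower. PSME1, a proteasome activator subunit, came next by unadjusted p, with 53.3, 57.3, 44.4 and 51.8 FPKM in large clones and 64.1, 59.3 and 65.5 FPKM in small clones (limma adjusted p = 0.322). None of 18 tested interferon-stimulated genes passed, 15 were lower, and their median was -0.18, with IFI6 at 17.4, 10.6, 10.4 and 9.65 FPKM in large clones and 24.2, 16.7 and 21.7 FPKM in small clones.

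GJA3 (chromosome 13, 20138255 to 20161049, minus strand) encodes connexin 46, a gap junction protein best known from the lens. GJA3 was at 2.83, 3.03, 4.98 and 4.74 FPKM in large clones, against 0.336, 0.508 and 0.263 FPKM in small clones, where no value reached 1 FPKM. It rose by 1.81 ± 0.18 (SE, limma adjusted p = 0.01099) and entered the test through the large clones. Its level in the large clones spanned that of the 2N clones (4.33 and 4.401 FPKM). CRTAM (chromosome 11, 122838500 to 122872639, plus strand), an adhesion receptor of the nectin-like family known from activated T and natural killer cells, was at 14.3, 13.5, 16.2 and 9.03 FPKM in large clones and 1.97, 4.74 and 2.77 FPKM in small clones (log2 difference 1.80 ± 0.25, SE, limma adjusted p = 0.0476). The leukocyte markers summed to 0.514 to 2.22 FPKM in large clones and 0.649 to 1.01 FPKM in small clones, and their part in the difference of CRTAM was not tested. The 2N clones had 8.10 and 15.8 FPKM of CRTAM and the parental line 14.2 FPKM, all above the small clones. The call on CRTAM was lost with limma voom on the recovered reads (adjusted p = 0.0574) and with a pseudocount of 0.1 (limma adjusted p = 0.0616).

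LAGE3 (chromosome X, 154477769 to 154479257, minus strand) encodes a subunit of the KEOPS complex, which modifies transfer RNA. It had 14.1, 18.9, 11.98 and 14.8 FPKM in large clones, against 3.89, 2.76 and 5.21 FPKM in small clones, and rose by 1.70 ± 0.19 (SE, limma adjusted p = 0.0196). The 2N clones had 19.4 and 13.4 FPKM of LAGE3 and the parental line 12.7 FPKM, all above the small clones. MLPH (chromosome 2, 237485428 to 237555318, plus strand), whose product melanophilin links vesicles to myosin V, had 9.63, 9.97, 9.18 and 8.43 FPKM in large clones and 4.84, 5.55 and 4.900 FPKM in small clones, without overlap (log2 difference 0.76 ± 0.09, SE, limma adjusted p = 0.0196). Its call was lost with the spread shared with the 2N clones or over all 26 libraries (limma adjusted p = 0.252 and 0.0949). HIST1H2BD (chromosome 6, 26158146 to 26171349, plus strand), a histone H2B gene, had 4.44, 5.56, 4.73 and 3.48 FPKM in large clones and 1.61, 1.801 and 1.77 FPKM in small clones (limma adjusted p = 0.0331). Its call was lost with limma voom (adjusted p = 0.0748) and with the spread shared with the 2N clones or over all 26 libraries (limma adjusted p = 0.215 and 0.181), and its close copies elsewhere in the histone clusters make the assignment of reads uncertain. C9orf152 (chromosome 9, 110190048 to 110208189, minus strand) had 2.85, 4.96, 4.88 and 2.95 FPKM in large clones, against 10.6, 13.03 and 10.98 FPKM in small clones, and fell by 1.38 on the log2 scale (limma adjusted p = 0.0385). That call was lost with a pseudocount of 0.1 (limma adjusted p = 0.0616). The 2N clones lay between the classes at 8.15 and 5.69 FPKM. MLPH was at 7.204 and 17.1 FPKM in the 2N clones and 6.93 FPKM in the parental line, and HIST1H2BD at 2.03 and 6.92 FPKM and 2.56 FPKM, so for both genes 2N clone 2 was above all large clones and the other 2N libraries were below all of them.

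The pseudoautosomal genes moved together. They were singled out after their values were seen, so the counts are a description. Of 34 annotated genes of the first pseudoautosomal region, 13 passed the filter on low values, all 13 were lower in large clones, 12 of them at an unadjusted p below 0.05 (6.75% of all genes were), and the median log2 difference was -0.62, against 0.03 for the 352 other tested genes of chromosome X. GTPBP6 (304529 to 318819, minus strand), a GTP-binding protein that acts on mitochondrial ribosomes, was at 20.1, 23.8, 18.6 and 22.6 FPKM in large clones, against 39.4, 46.4 and 41.4 FPKM in small clones, and fell by 0.97 on the log2 scale (limma adjusted p = 0.01604). CD99 (2691133 to 2741309, plus strand), a surface glycoprotein, was at 25.4, 20.4, 21.3 and 20.3 FPKM in large clones and 36.5, 42.98 and 45.4 FPKM in small clones, and fell by 0.90 (limma adjusted p = 0.0243). The mean of the small clones was 1.99 times that of the large clones for GTPBP6 and 1.90 times for CD99.

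AKAP17A (1591593 to 1602514, plus strand), an anchoring protein of protein kinase A found in splicing bodies, was at 13.1, 13.9, 12.9 and 13.3 FPKM in large clones and 20.9, 25.2 and 24.5 FPKM in small clones. ZBED1 (2486414 to 2500967, minus strand), a zinc finger transcription factor, was at 5.34, 7.197, 6.06 and 6.04 FPKM in large clones and 11.1, 14.3 and 13.2 FPKM in small clones. IL3RA (1336616 to 1382689, plus strand), the alpha chain of the interleukin 3 receptor, was at 0.212, 0.515, 0.228 and 0.1997 FPKM in large clones and 1.56, 2.45 and 1.77 FPKM in small clones, so it too entered the test through the small clones. These 3 genes fell by 0.77, 0.96 and 1.18 on the log2 scale, with limma adjusted p of 0.0165, 0.0243 and 0.0268. With the spread shared over all 26 libraries, the calls on GTPBP6, AKAP17A and ZBED1 were lost (limma adjusted p = 0.0833, 0.0918 and 0.503), and with a pseudocount of 0.1 that on IL3RA was (limma adjusted p = 0.0635). The other 8 tested genes of the region did not pass, with log2 differences from -1.42 for PLCXD1 to -0.36 for ASMTL-AS1. SLC25A6, an adenine nucleotide carrier of mitochondria and the most abundant of the 13, had 167, 277, 143 and 209.8 FPKM in large clones and 296, 306 and 288 FPKM in small clones, and large clone 2 nearly reached the small clones.

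Over the 13 genes, the median log2 level relative to the mean of the small clones took the values -0.78, -0.54, -0.82 and -0.77 for large clones 1 to 4. It was -0.84 in both 2N clones and -0.21 in the parental line. Large clones 1, 3 and 4 were near the 2N clones, and large clone 2 lay between the 2N clones and the parental line. Fewer cells with these transcripts and less RNA per cell cannot be told apart in bulk libraries. The 8 genes of chromosome Y past the threshold moved in the same direction, and their part in the pseudoautosomal differences was not tested.

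**Figure D2:**
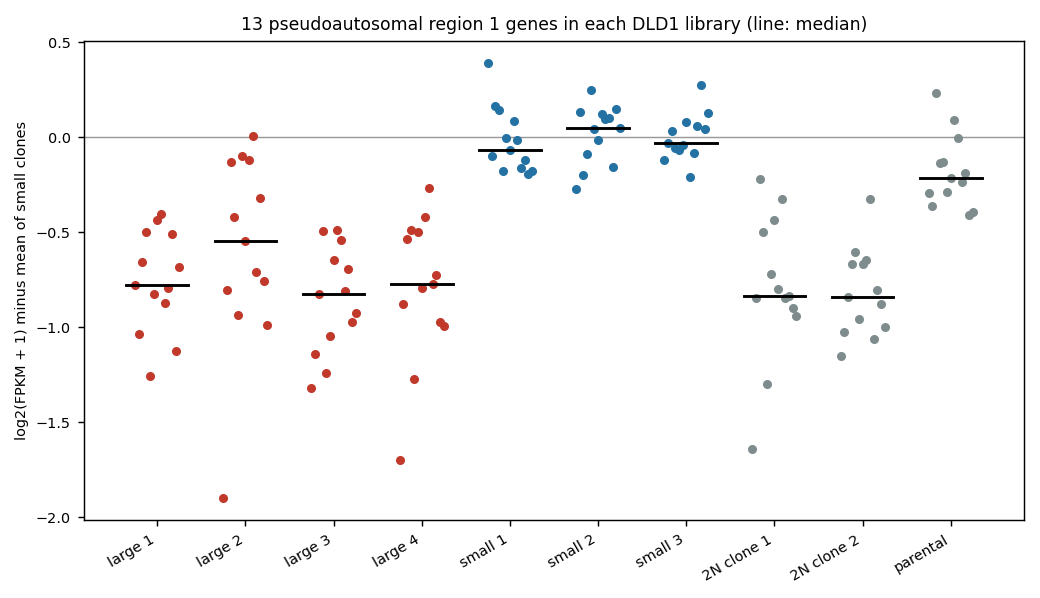
The 13 tested genes of the first pseudoautosomal region in each DLD1 library, as log2(FPKM + 1) minus the mean of the 3 small clones. Each point is a gene and each line the median of a library. The medians lie between -0.82 and -0.54 in the large clones (red), near 0 in the small clones (blue), and at -0.84, -0.84 and -0.21 in the 2N clones and the parental line (grey).

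Beyond the 14 genes, the next by moderated statistic among genes without overlap between the classes were not past the threshold. Among those higher in large clones, QPCT, the glutaminyl cyclase that caps peptide hormones, had 12.6, 18.2, 10.3 and 9.61 FPKM in large clones and 3.37, 4.93 and 3.58 FPKM in small clones (limma adjusted p = 0.0629). ZNF516, AGTPBP1, IL27RA, IFNGR2 and SCARA3 followed, with log2 differences of 1.19, 0.53, 0.63, 0.75 and 0.64 and adjusted p from limma between 0.0847 and 0.0947. ZNF516 was at 1.52, 2.20, 2.00 and 2.65 FPKM in large clones and 0.154, 0.175 and 0.785 FPKM in small clones. It thus entered the test through the large clones. IFNGR2, the second chain of the interferon gamma receptor, was at 5.48, 6.004, 7.34 and 7.82 FPKM in large clones and 3.27, 3.33 and 3.96 FPKM in small clones. Among those lower in large clones, ZNF140 was at 1.94, 2.06, 2.05 and 1.86 FPKM in large clones and 3.38, 4.58 and 4.85 FPKM in small clones (limma adjusted p = 0.0537). SEMA3C, a secreted semaphorin on chromosome 7, was at 1.33, 1.57, 1.57 and 1.23 FPKM in large clones and 2.95, 2.73 and 3.65 FPKM in small clones, and FGD2, an exchange factor for CDC42, was under 1 FPKM in all large clones and at 1.16, 1.08 and 1.42 FPKM in small clones (both limma adjusted p = 0.0629). FGD2 thus entered the test through the small clones. IFT57, a subunit of the transport complex of cilia, was at 4.38, 4.85, 4.43 and 5.02 FPKM in large clones and 6.77, 7.13 and 8.47 FPKM in small clones (limma adjusted p = 0.0901). Apart from IFT57, which earlier work on these data had named, these genes were taken only from protein-coding genes without overlap. Absence of overlap was thus fixed by the choice. Over all tested genes it held for 4.89% in the higher and 7.08% in the lower direction. IFT57 did not overlap between the classes either.

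The alpha-catenin gene CTNNA1, whose product couples cadherins to actin, had a wide spread inside the small class. It was at 36.1, 38.01, 38.7 and 32.9 FPKM in large clones, against 23.4, 2.59 and 2.24 FPKM in small clones. Small clones 2 and 3 held little of the transcript and small clone 1 held most of it. The log2 difference was 2.51 ± 0.63 (SE) with a limma adjusted p of 0.192. The other 23 tested genes of the adherens junction and desmosome did not pass either, and the list had a median of 0.02.

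Of the 33 gene lists, 3 held a gene past the threshold, namely the brush border, class I and tight and gap junction lists. Of 32 tested glycolysis and hypoxia genes, 26 had a higher mean in large clones and the list median was 0.13 (0.07 to 0.19 with 1 clone left out at a time), and none passed. SLC2A1, the main glucose importer, had 177, 84.3, 179 and 126 FPKM in large clones and 93.2, 88.03 and 61.7 FPKM in small clones, and large clone 2 stayed within the small clones. ENO2, a form of enolase, had 4.41, 2.13, 8.002 and 3.51 FPKM in large clones and 1.54, 1.31 and 1.27 FPKM in small clones (limma adjusted p = 0.231). Large clone 2 was also the lowest large clone for SLC2A3, with 0.5004 FPKM.

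All 13 mitochondrially encoded mRNAs were lower in large clones, with a median of -0.24 (-0.32 to -0.12 with 1 clone left out at a time), and none passed. The clones overlapped. MT-CO1, a core subunit of cytochrome oxidase, had 5854, 5145, 5179 and 3287 FPKM in large clones and 4988, 5524 and 5440 FPKM in small clones. The mitochondrial share of all reads was 3.22 ± 0.606% in large clones (SD, n = 4) and 3.70 ± 0.310% in small clones (SD, n = 3), with p = 0.343 in a two-sided exact permutation test, where the smallest possible p is 0.0571. The 2 quantities tested this way both had an adjusted p of 0.571. Of 79 cytosolic ribosomal protein genes, 72 were higher in large clones, but the median log2 difference was only 0.11 and none passed. Nuclear genes of oxidative phosphorylation had a median of 0.03 over 64.

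Lists of cell division and nuclear structure had medians close to that of all genes. Of 43 tested DNA replication genes, 33 were lower with a median of -0.08, and E2F2, a transcription factor of S phase, led with 4.17, 5.01, 5.34 and 4.95 FPKM in large clones and 7.38, 8.57 and 7.82 FPKM in small clones (limma adjusted p = 0.0799). Medians were -0.03 over 41 genes of mitosis and the spindle checkpoint, -0.07 over 25 of cohesin and condensin, -0.02 over 26 of the centrosome, -0.03 over 31 of the nuclear pore and -0.02 over 21 of the nuclear lamina and envelope, and none of these passed. With each library scaled to the same FPKM sum, the median of all genes moved by less than 0.1 to 0.01, and the medians of the lamina, pore and centrosome lists turned positive, at 0.000130, 0.000172 and 0.000123. Of 28 tested targets of p53 and the PIDDosome, the complex that senses extra centrosomes, none passed, and the median was 0.01. PIDD1 had 8.003, 10.01, 7.87 and 7.34 FPKM in large clones and 9.61, 10.3 and 11.5 FPKM in small clones, with overlap between the classes.

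Among stress and signalling lists, 16 of 20 tested NRF2 targets were lower, with a median of -0.18, and none passed. NQO1, a quinone reductase, ranged over 42.7, 79.98, 31.6 and 26.8 FPKM in large clones and 65.4, 114 and 153 FPKM in small clones. Of 17 tested YAP and TAZ targets, 10 were higher, with a median of 0.09 (0.04 to 0.22 with 1 clone left out at a time), and none passed. TGFB2, a ligand of the transforming growth factor beta family, had 2.97, 14.2, 6.67 and 4.83 FPKM in large clones and 1.24, 1.49 and 1.35 FPKM in small clones, all large clones above all small clones (limma adjusted p = 0.179). FOS, an immediate early transcription factor, had 9.77, 14.7, 10.2 and 11.9 FPKM in large clones and 25.9, 15.7 and 25.7 FPKM in small clones (limma adjusted p = 0.161), and FOSB had 1.83, 1.82, 1.03 and 0.943 FPKM in large clones and 3.901, 2.32 and 3.55 FPKM in small clones. The 32 tested immediate early and MAPK feedback genes had a median of 0.08.

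**Figure D3:**
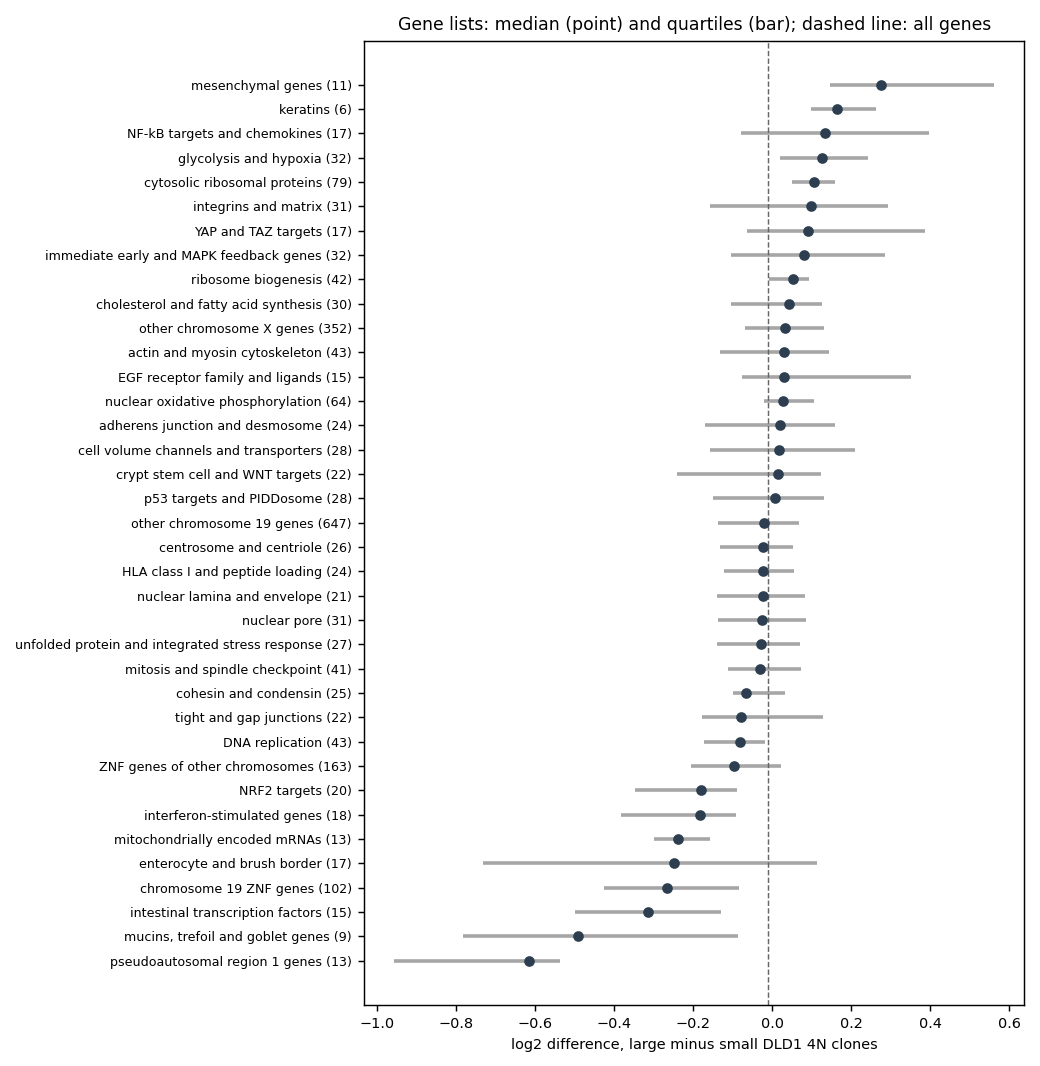
Median (point) and quartiles (bar) of the log2 difference, large minus small DLD1 4N clones, for each list with at least 5 tested genes, whose number stands in brackets. The dashed line marks the median of all 11646 genes. Pseudoautosomal genes, mucins and trefoil genes, intestinal transcription factors and chromosome 19 zinc finger genes lie lowest, at -0.62, -0.49, -0.32 and -0.27.

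Zinc finger (ZNF) genes of chromosome 19, most of which encode repressors that carry a KRAB domain and bind repeat elements, were lower in large clones. This group was picked after its values were seen. Of 102 tested, 91 were lower, while no gene passed the adjusted threshold. At an unadjusted p below 0.05, 56 were lower and none higher, against 6.75% and 4.97% of all genes. Without overlap between the classes, 55 were lower, against 7.08% of all genes. Some members, ZNF850, ZNF431, ZNF14 and ZNF44 among them, were under 1 FPKM in all large clones and entered the test through the small clones. The median log2 difference was -0.27, against -0.10 for 163 ZNF genes of other chromosomes and -0.02 for 647 other genes of chromosome 19, a median that turned to 0.000536 with each library scaled to the same FPKM sum and to 0.01 with each clone centred by chromosome. ZNF genes of other chromosomes had 22 lower and 4 higher at an unadjusted p below 0.05, and other chromosome 19 genes had 58 and 23.

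ZNF180 led the group by moderated statistic, at 2.48, 2.54, 2.44 and 2.62 FPKM in large clones and 4.11, 5.87 and 5.66 FPKM in small clones (limma adjusted p = 0.0555). ZNF91, a repressor of SVA retroelements, was at 1.33, 1.31, 1.07 and 0.843 FPKM in large clones and 2.29, 3.73 and 4.48 FPKM in small clones. ZNF850 was at 0.539, 0.678, 0.612 and 0.503 FPKM in large clones and 1.52, 4.16 and 3.16 FPKM in small clones. Small clone 1 was the lowest of the small clones in all 3. Over the 102 genes, large clones 1 to 4 had medians of -0.34, -0.19, -0.30 and -0.26 relative to the mean of the small clones, whose own medians were -0.07, 0.08 and 0.03. It was -0.31 and -0.19 in the 2N clones and -0.26 in the parental line, so the small clones stood apart from the large clones and the 2N libraries alike. Without small clone 2, 35 of the 102 were lower at an unadjusted p below 0.05. Many of these genes are low and have near copies in the same cluster, which leaves the assignment of reads uncertain. Among genes with a mean of 5 FPKM or more, 5 chromosome 19 ZNF genes were lower at that p.

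**Figure D4:**
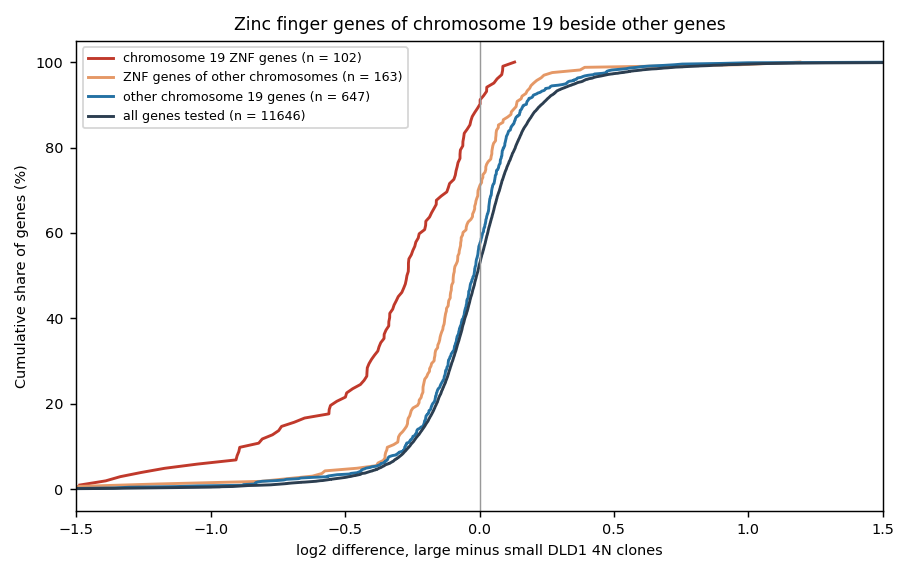
Cumulative share of genes (%) by log2 difference, large minus small DLD1 4N clones, for 102 ZNF genes of chromosome 19, 163 ZNF genes of other chromosomes, 647 other genes of chromosome 19 and all 11646 tested genes. The curve of the chromosome 19 ZNF genes lies to the left, with a median of -0.27, and the curves of the other chromosome 19 genes and of all genes lie close together.

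Whole chromosomes were read from the median log2 level of their genes, relative to the mean of the 3 DLD1 2N libraries. A median of 0.2 or more in size was found for 7 pairs of clone and chromosome. In large clones these were chromosome 3 in clone 1 (-0.28), chromosomes 7 and 10 in clone 2 (-0.30 and -0.33), and chromosomes 7 and 15 in clone 4 (-0.29 and 0.21). In small clones they were chromosome 5 in clone 1 (-0.29) and chromosome 14 in clone 3 (-0.21). Large clone 3 and small clone 2 had none. Chromosome 7 was thus low in 2 of 4 large clones and in no small clone, and 108 of its 575 tested genes (18.8%) were lower at an unadjusted p below 0.05, against 6.75% of all genes, with a median log2 difference of -0.16. With each clone centred by chromosome, 45 were. The SD of the medians over the 22 autosomes was 0.0676 ± 0.0364 in large clones (SD, n = 4) and 0.0536 ± 0.0286 in small clones (SD, n = 3), a difference within the spread of the clones (two-sided exact permutation test, p = 0.571).

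**Figure D5:**
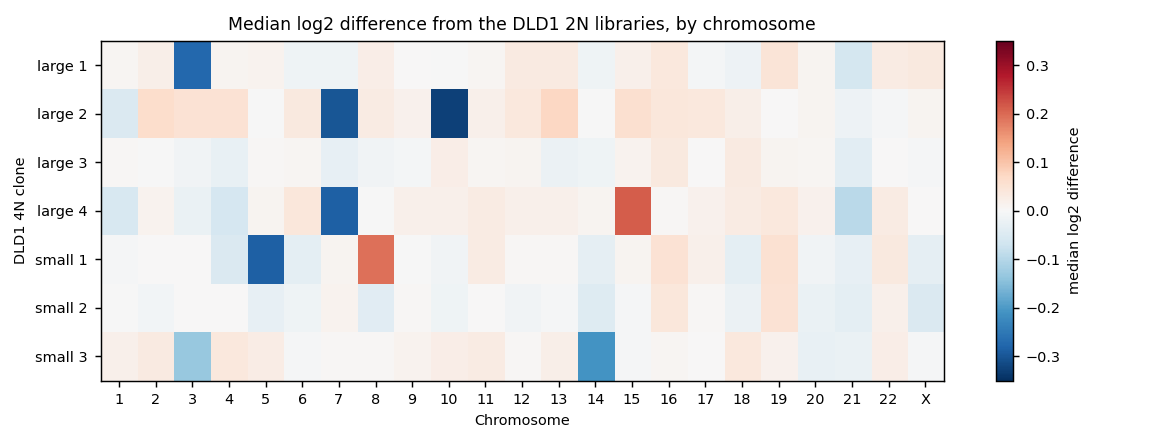
Median log2 difference of each 4N clone from the mean of the DLD1 2N libraries, for each chromosome (columns) and clone (rows), on a colour scale from -0.35 to 0.35. The strongest cells are chromosomes 7 and 10 in large clone 2, chromosome 7 in large clone 4, chromosome 3 in large clone 1 and chromosome 5 in small clone 1.

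The same contrast was available in HCT116, another colorectal line, with 3 large and 3 small 4N clones made with blebbistatin, an inhibitor of myosin II. The line and the drug cannot be told apart in this comparison. The large minus small difference of DLD1 differed from that of HCT116 in 10 of the 11646 genes at an adjusted p below 0.05 (0.0859%), 1 of them on chromosome Y. VIL1, HLA-B, LAGE3 and GJA3 were among the 10. VIL1 averaged 0.00832 ± 0.00388 FPKM in large and 0.00982 ± 0.0107 FPKM in small HCT116 clones (SD, n = 3 each), so this line offered no level to compare (limma adjusted p of the interaction = 0.00027). HLA-B averaged 37.1 ± 4.07 FPKM in large and 41.96 ± 9.14 FPKM in small HCT116 clones, GJA3 averaged 4.53 ± 1.56 FPKM in large and 5.25 ± 1.08 FPKM in small HCT116 clones, and LAGE3 averaged 38.8 ± 7.96 FPKM in large and 43.9 ± 4.58 FPKM in small HCT116 clones (SD, n = 3 each). In HCT116 their log2 differences were -0.16, -0.20 and -0.19, against 2.14, 1.81 and 1.70 in DLD1, and their interaction had limma adjusted p of 0.0383, 0.0395 and 0.0383. For the other 10 of the 14 genes, the difference between the lines did not pass the threshold (limma adjusted p from 0.0574 to 0.653). Among them, CRTAM averaged 0 FPKM in both HCT116 classes. C9orf152 averaged 0.0165 FPKM in large and 0.0224 FPKM in small HCT116 clones, and IL3RA 0.190 and 0.203 FPKM. HCT116 thus offered little or no level to compare for these genes, and their result does not show that the lines behaved alike. Fitted alone, HCT116 had 2 genes past an adjusted p of 0.05 (0.0172%) and 1029 at an unadjusted p below 0.05 (8.84%), and of the 14 genes 1, CD99, reached the unadjusted threshold there, in the same direction as in DLD1.

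Single clones also carried differences of their own. In 15 genes, 1 clone lay at least 2 log2 units from each of the other 6, which is given as a description. Small clone 1 held 5 of them, large clone 1 held 4, large clone 4 and small clones 2 and 3 held 2 each, and large clones 2 and 3 held none. TNC, the matrix protein tenascin C, was at 37.2 FPKM in small clone 1 and at most 3.58 FPKM in the others, and the adhesion receptor ALCAM was at 0.713 FPKM there and at 6.003 to 9.902 FPKM elsewhere. S100P, a calcium-binding protein, was at 31.3 FPKM in large clone 1 and at most 5.03 FPKM elsewhere. Also in large clone 1, 3 genes of chromosome 17, MIR4740, BAHCC1 and CENPV, were at 0.9601, 0.0831 and 0.441 FPKM and at no less than 9.53, 3.899 and 5.07 FPKM in the other clones. MIR4740 lies within BAHCC1 on the opposite strand, so the 2 are 1 locus and not independent. In large clone 4, LGALS3BP, a secreted galectin ligand, was at 1.25 FPKM, against at least 12.2 FPKM elsewhere, and REG4, a lectin of secretory gut cells, at 15.6 FPKM, against at most 2.88 FPKM. KLHL4 (34.7 FPKM) and PRSS2 (44.5 FPKM) were high in small clone 2. CD24, a mucin-like surface protein, was at 4.95 FPKM in small clone 3 and at 24.3 FPKM or more in the others. CD24 also separated the classes. Small clones 1 and 2 reached only 37.6 and 24.3 FPKM, while the large clones ranged from 73.2 to 92.4 FPKM. Its log2 difference of 2.24 was not past the threshold (limma adjusted p = 0.181).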

How the data were processed

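Poly-A RNA was sequenced from directional libraries, per the labels' protocols. The tools that the submitters' processing notes name are fastp, HISAT2 (2.0.5), featureCounts (1.5.0-p3) and DESeq2, with the genome build GRCh38; of these steps nothing else is given in the sources used here. The authors deposited FPKM values per gene, which were used as they stand. Reads recovered from them through gene length were whole numbers to within 0.01 in all 26 libraries and gave the depths and 1 alternative.

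Genes with at least 1 FPKM in at least 3 of the 7 DLD1 4N clones were tested on log2(FPKM + 1) by limma (3.58.1, under R 4.3.3), with an intensity trend, moderated variances (prior df 3.02, residual df 5) and Benjamini-Hochberg adjustment over 11646 genes at a threshold of 0.05. Tests were two-sided. The interaction with HCT116 used the same model over both lines. Of 100 genes changed by a log2 of 1 in data simulated for this comparison, 88 were called, of 100 changed by a log2 of 2, 99, and of 11446 unchanged genes, 10. The simulation had normal noise and added each change in full on the log2(FPKM + 1) scale. It also held many more changed genes than were called in the real data, which loosens the Benjamini-Hochberg cutoff. These shares therefore do not give the power of the real comparison. Chromosome medians used genes with a mean of 5 FPKM or more and chromosomes with at least 50 of them. Other steps used Python 3.11.15, pandas 2.3.3, numpy 2.4.6, scipy 1.17.1 and, for plots, matplotlib 3.10.9.

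The comparison, the gene lists and the rules were chosen with earlier results of these data known. Outside chromosome Y, protein-coding genes were named if past the threshold without overlap (up to 15 a direction). They were filled to 12 a direction by moderated statistic, again only from genes without overlap. Added were list members by p, genes that earlier work on these data had named, and genes private to 1 clone (a gap of at least 2 log2 units). The pseudoautosomal, chromosome 19 ZNF and chromosome 7 groups were chosen after their values were seen. Levels of genes on chromosome Y are not reported here.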

Additional observations from a re-analysis of the deposited data

Results flagged for a closer look

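Within the 4 large clones, 2 pseudoautosomal genes had 1 clone set apart from the other 3, relative to the range of the 4. Such a gap can be small in FPKM where the other 3 lie close together. IL3RA was at 0.515 FPKM in large clone 2 and at 0.1997 to 0.228 FPKM in the others, so that the gap to the nearest was 0.9004 of the whole range on the log2(FPKM + 1) scale. PPP2R3B, a regulatory subunit of a protein phosphatase, was at 1.301 FPKM in large clone 2 and at 1.18 to 1.195 FPKM in the others, with a gap of 0.855 of the range on that scale. Gaps of this size come up by chance in about 1 of 20 groups.

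For 9 genes outside chromosome Y, the large minus small difference of DLD1 differed from that of HCT116 by the limma interaction test. The adjusted p was 0.0002701 for VIL1, 0.0383 for HLA-B and LAGE3, and 0.0395 for GJA3, whose values stand in the report. FIGNL1, an ATPase of homologous recombination, averaged 5.18 ± 0.5904 FPKM in large and 7.91 ± 0.0451 FPKM in small DLD1 clones, and 7.45 ± 0.918 FPKM in large and 4.13 ± 0.732 FPKM in small HCT116 clones (limma adjusted p = 0.0383). FIGNL1 lies on chromosome 7, which was low in large DLD1 clones 2 and 4. Its log2 difference in DLD1 was -0.53, and -0.35 with each clone centred by chromosome. The interaction was not tested after centring. AC010487.1, annotated as an unprocessed pseudogene, had log2 differences of -0.83 in DLD1 and 0.39 in HCT116 (limma adjusted p = 0.0383). Its levels were low, at 0.516, 0.342, 0.443 and 0.227 FPKM in large and 1.40, 1.76 and 1.23 FPKM in small DLD1 clones. It thus entered the test through the small clones. In HCT116 it averaged 0.969 ± 0.140 FPKM in large and 0.508 ± 0.103 FPKM in small clones. SYBU, a linker of kinesin cargo, averaged 3.43 ± 0.449 FPKM in large and 7.62 ± 2.78 FPKM in small DLD1 clones, with log2 differences of -0.91 in DLD1 and 0.80 in HCT116 (limma adjusted p = 0.0383). SAT1, the enzyme that starts polyamine breakdown, averaged 38.05 ± 5.87 FPKM in large and 25.5 ± 3.85 FPKM in small DLD1 clones, and 61.5 ± 35.6 FPKM in large and 228 ± 46.99 FPKM in small HCT116 clones (limma adjusted p = 0.0395). MAB21L4 averaged 18.4 ± 4.63 FPKM in large and 41.3 ± 10.5 FPKM in small DLD1 clones, and 0.637 ± 0.293 FPKM in large and 0.00695 ± 0.00602 FPKM in small HCT116 clones (limma adjusted p = 0.0395). All SDs here are over 4 large and 3 small DLD1 clones and 3 HCT116 clones of each class.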

How the results depend on the processing

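The count of 22 genes, 6 higher and 16 lower in large clones, was 12 with a pseudocount of 0.1 (7 lower), 16 without a filter on low values (0 higher, and 12 of the 14 genes outside chromosome Y lost), 10 among genes with a mean of 5 FPKM or more (3 higher, 7 lower) and 76 with the spread shared over all 26 libraries (22 higher, 54 lower), of which 12 were among the 22; HIST1H2BD, MLPH, GTPBP6, ZBED1 and AKAP17A were not. With 1 clone left out it ran from 8 to 42 (1 to 21 higher, 7 to 30 lower). It was 10, 42, 12 and 8 without large clones 1 to 4, and 42, 10 and 10 without small clones 1 to 3. Without large clone 4, 12 of the 14 genes outside chromosome Y were lost, as without small clone 2 or small clone 3; 11 were lost without large clone 1, 9 without large clone 3, 4 without small clone 1 and 1 without large clone 2. All 14 genes had the same direction in every setting in which they were tested. Chosen after seeing the data, the chromosome 19 ZNF count of 56 was 93 without the filter, 5 at a mean of 5 FPKM and 35 to 55 with 1 clone left out. The pseudoautosomal count of 12 was 5 at a mean of 5 FPKM and 10 to 13 with 1 clone left out. The chromosome 7 count of 108 was 63 at a mean of 5 FPKM, 45 centred by chromosome and 76 to 148 with 1 clone left out. The count of 10 genes that differed from HCT116 ran from 1 to 21 with 1 clone left out. The difference in the spread of chromosome medians ran from -0.00120, reversed without small clone 2, to 0.0304, and that of the mitochondrial share from -0.683 to -0.206 percentage points. A limit is that 4 and 3 clones give few degrees of freedom.

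The replicate numbers name clones, and the labels state no pairing. Same-numbered clones had correlations of their deviations of -0.00844, 0.0953 and -0.0653, and other pairs of a large and a small clone had -0.118 to 0.0792. Such small values cannot settle whether pairs exist. A replicate block leaves 2 residual df, against 5 without it. With a replicate block, limma called 0 genes (0 higher, 0 lower; 1007 at an unadjusted p below 0.05), and 67 chromosome 7 genes were lower at an unadjusted p below 0.05. Tests with edgeR and DESeq2 on the recovered reads were planned and were not run, and limma voom, which called 21 genes, was used on those reads.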

Other observations

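Genes that set cell volume and handle ions were not described above, and none of the 28 tested passed the threshold. The 4 with the lowest unadjusted p were SLC5A3, KCNK5, CFTR and NFAT5. Of the 28 genes, 3 were higher and 2 lower in large clones without overlap, against 4.89% and 7.08% of all genes. SLC5A3, the carrier of the osmolyte inositol, was at 4.42, 5.000, 4.499 and 4.72 FPKM in large clones, against 3.39, 2.76 and 3.28 FPKM in small clones (limma adjusted p = 0.118). NFAT5, the transcription factor that responds to hypertonic stress, was at 7.01, 7.08, 6.73 and 8.12 FPKM in large clones and 5.51, 4.67 and 5.99 FPKM in small clones (limma adjusted p = 0.228). KCNK5, a potassium channel, was at 7.37, 5.13, 6.64 and 9.46 FPKM in large clones and 11.6, 13.6 and 12.97 FPKM in small clones (limma adjusted p = 0.143). CFTR, the chloride channel of gut and airway epithelium, was at 0.0518, 0.566, 0.306 and 0.422 FPKM in large clones and 1.75, 1.56 and 5.55 FPKM in small clones (limma adjusted p = 0.153), and entered the test through the small clones.

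Of 31 tested integrin and matrix genes none passed, and their median log2 difference was 0.10 (0.04 to 0.14 with 1 clone left out at a time). ITGAV, the alpha chain of the vitronectin receptors, was at 19.2, 18.6, 23.3 and 20.8 FPKM in large clones, against 12.4, 13.6 and 16.6 FPKM in small clones (limma adjusted p = 0.1698). ITGA3, an alpha chain of a laminin receptor, was at 15.1, 7.58, 17.96 and 11.6 FPKM in large clones, against 26.9, 21.4 and 24.8 FPKM in small clones (limma adjusted p = 0.227). Of the 31, 5 were higher and 3 lower without overlap, these 2 among them, against 4.89% and 7.08% of all genes.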
